A study of Mus musculus with 3 samples.

Results

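The amino acid and ATF4 stress response was followed through 10 genes, Atf4, Atf5, Ddit3, Trib3, Nupr1, Asns, Chac1, Sesn2, Slc7a5 and Slc3a2. They were chosen by symbol and all 10 were found among the 31053 genes of the count matrices. Single-cell RNA-seq with 10x Genomics libraries was run on cultured mouse cortical cells (C57BL/6) that had been fixed in methanol. There were 3 groups with 1 library each, so no difference below could be tested against the spread between cultures, and every interval in parentheses is an exact 95% interval for counting error alone. The neural stem cells were neurosphere cultures from embryonic cortex (E14.5), kept without serum in EGF and FGF2 at 20 ng/mL. Untreated astrocytes grew attached to plates in medium holding 10% serum. The treated culture was washed and moved from there to MIM, which is serum-free, contains FGF2 at 20 ng/mL and holds up to 6 added metabolites (methionine, threonine, glycine, cysteine, putrescine and S-adenosylmethionine), and was collected by day 5. E14.5 is the age given for all 3 samples. The labels state neither which of these metabolites nor which day applied to the library, nor whether the astrocytes were postnatal cells sorted for GLAST or were differentiated from neurospheres. The added amino acids, the loss of serum, FGF2 and the base medium changed together and cannot be told apart.

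ATF4 is a transcription factor whose protein is made when the initiation factor eIF2 is phosphorylated, by GCN2 when amino acids are short, by PERK when unfolded protein builds up in the endoplasmic reticulum (ER), and by other kinases. Much of its control acts on translation, so the Atf4 transcript is only a partial readout, and its target genes are read alongside it. The targets make, import and charge amino acids, and others (Ddit3, Trib3, Chac1, Nupr1) act in feedback or in the late, damaging phase of the stress.

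Many targets carry a short composite site bound by ATF4 with a C/EBP partner. Its core TGATGNAA was searched on both strands in RefSeq promoter windows of 300 bases (250 before to 50 after the start, GRCm38.p6). The core lay in 4 of the 9 genes that had a window, against 3.97% of all 32851 windows; a match is a description of letters and not a shown binding site. The 4 are printed below 5′ to 3′ on the gene's strand, with the match in capitals.
Chac1, chr2:119351027-119351078: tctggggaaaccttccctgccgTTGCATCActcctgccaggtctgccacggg
Nupr1, chr7:126625551-126625602: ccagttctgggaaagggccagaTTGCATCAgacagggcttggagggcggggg
Asns, chr6:7693210-7693254: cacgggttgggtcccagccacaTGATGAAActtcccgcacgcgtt
Trib3, chr2:152344028-152344057: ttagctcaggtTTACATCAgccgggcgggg
The Chac1 and Nupr1 matches are the same 8 bases, read on the opposite strand to the gene, and began 193 and 110 bases before the RefSeq start. The Asns match reads along the gene and began 23 bases before the start. The Trib3 match began 15 bases after the RefSeq start, which lies outside the gene's span in the GENCODE annotation. No match was found in the windows of Atf4, Atf5, Ddit3, Sesn2 and Slc3a2. The Slc3a2 window (chr19:8713848-8714147) and the Nupr1 window (chr7:126625421-126625720) lie inside the GENCODE spans of these genes, away from their annotated 5′ ends. No window at those ends was searched.

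The libraries differed in depth and make-up, which bears on every comparison. Kept cells numbered 9145 (neural stem cells), 9818 (astrocytes) and 14964 (MIM-treated), with 14689259, 50594420 and 50906724 UMIs and medians of 1379, 5089 and 3156 UMIs per cell. Malat1 alone took 26.9%, 13.7% and 9.44% of UMIs in that order, and ribosomal protein genes took 11.6%, 2.88% and 8.41%. Gfap, a filament gene used as an astrocyte marker, stood at 1.16, 271 and 4.05 counts per 1000000 UMIs (CPM). The MIM-treated library thus largely lacked this marker of its label. Its other astrocyte markers were led by Slc1a3 (363 CPM), which stood at 385 CPM in neural stem cells. All 7 astrocyte markers together summed to 590, 1175 and 587 CPM in the same order of libraries. Summed levels of 7 markers of dividing cells were 482, 8.70 and 1839 CPM, so dividing cells moved with the MIM library. Microglia markers summed to at most 0.356 CPM and endothelial markers to at most 1.38 CPM in any library. The astrocyte library also held mural Acta2 (42.9 CPM) and ependymal Rsph1 (38.3 CPM). Between pairs of libraries, 25 to 43 cell barcodes were shared, and the counts of called genes below were the same without them.

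A level is the sum of the gene's UMIs over all kept cells, scaled to the library total (CPM); since tags come from 3′ ends, each gene is compared across libraries and not with other genes. Summed over the 10 genes the level was 121 CPM in the neural stem cell library, 399 in untreated and 239 in MIM-treated astrocytes, and most of the astrocyte sum was Slc3a2. A gene was called higher or lower when the ratio of CPM + 1 was at least 2-fold and the gene reached 5 CPM in either library. In MIM-treated over untreated astrocytes, 7 of the 10 genes reached 5 CPM; 0 were higher and 2 were lower (Ddit3 and Slc3a2), against 10.7% higher and 18.6% lower of all 8889 genes at that level. In astrocytes over neural stem cells, 8 reached it, 5 were higher (Atf5, Ddit3, Asns, Nupr1, Slc3a2) and 1 was lower (Sesn2), against 22.6% and 25.6% of 9812 genes. In MIM-treated astrocytes over neural stem cells, 8 reached it, 3 were higher (Atf5, Asns, Nupr1) and 1 was lower (Slc7a5), against 11.4% and 23.8% of 9266 genes. The median log2 ratio of the genes that reached 5 CPM was -0.07, 1.35 and 0.77 in these 3 comparisons, beside -0.21, -0.04 and -0.24 over all genes. Each pair of comparisons shares a library. With TMM scaling, which moved the median of all genes by 0.23, 0.15 and 0.37, the MIM-treated over untreated comparison gave 1 gene higher (Nupr1) and 1 lower (Slc3a2), against 14.4% and 13.5% of all genes.

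**Figure D1:**
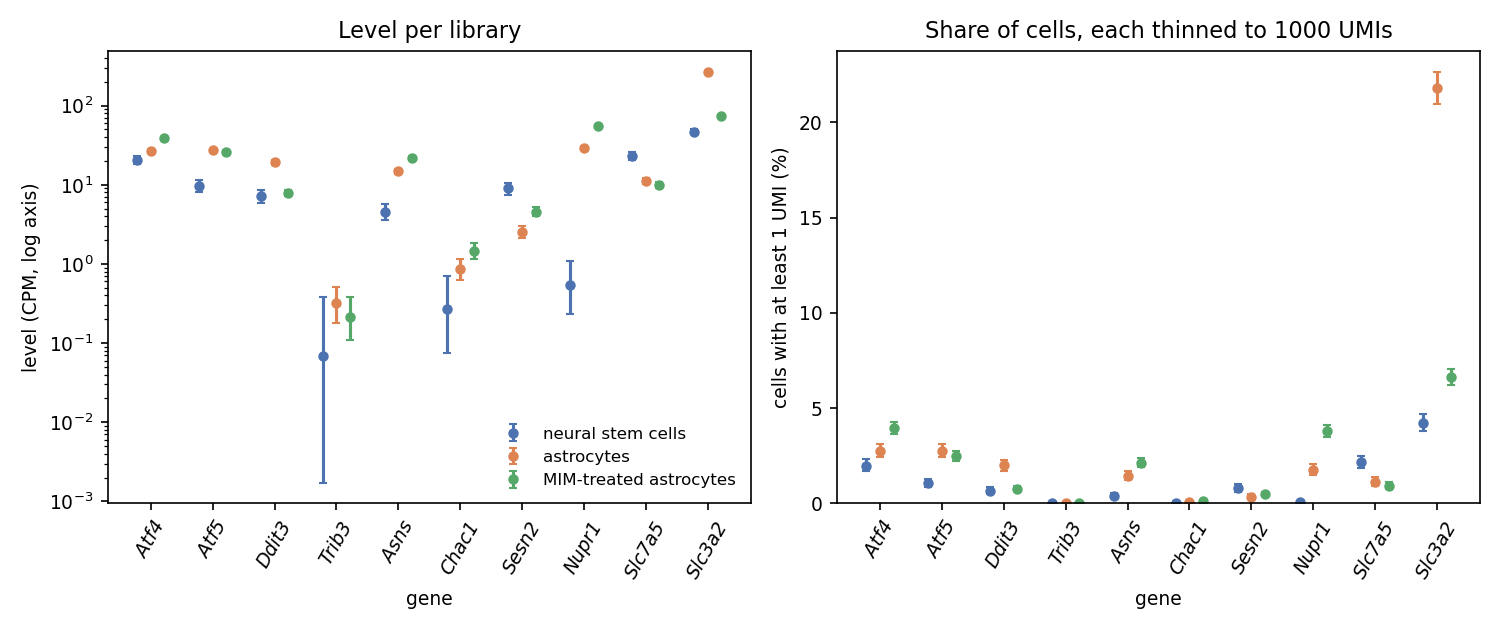
Left, level of each of the 10 genes in each library (CPM, log axis); right, share of cells with at least 1 UMI of the gene after each cell was thinned to 1000 UMIs (percent). Points are single libraries and bars are exact 95% counting intervals. Slc3a2 in untreated astrocytes stands at 267 CPM and 21.8% of cells, and Nupr1 in neural stem cells at 0.545 CPM.

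The transcription factors came first. Atf4 (chr15:80255184-80257541) was lowest in neural stem cells (20.4 CPM, 18.1 to 22.8), then 27.0 CPM (25.6 to 28.5) in untreated and 38.8 (37.1 to 40.6) in MIM-treated astrocytes. The 3 intervals do not overlap, and the MIM-treated level was 1.44-fold (1.34 to 1.54) the untreated level, short of the 2-fold rule. Because deeper cells show a gene more often, shares were taken after thinning every cell to 1000 UMIs, which left 7688, 9467 and 13991 cells and dropped 1457, 351 and 973 shallower ones. Atf4 was then seen in 1.98%, 2.77% and 3.94% of cells in the same order (unthinned 3.11%, 12.7% and 11.9%), so the order by thinned share was the order by level. None of the cultured cell types is known to lack these genes, so no cell type gave a background share for free RNA.

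Atf5 (chr7:44812256-44816658), a related factor that drives mitochondrial and other stress genes and is itself controlled at translation, stood at 9.74 CPM (8.20 to 11.5), 27.2 (25.7 to 28.6) and 25.8 (24.5 to 27.3). The MIM-treated over untreated ratio was 0.951 (0.881 to 1.03), and both astrocyte libraries were above the neural stem cells, by 2.79-fold (2.35 to 3.34) untreated and 2.65-fold (2.23 to 3.18) treated. As a log2 ratio the MIM-treated over untreated difference was -0.07, and 0.16 under TMM. The call of MIM-treated over neural stem cells (log2 1.32) was lost in cells without dividing markers (0.87), chosen after seeing the data, and with a pseudocount of 10 CPM (0.86).

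Ddit3 (chr10:127290774-127296288) encodes CHOP, a factor of the late stress response linked to cell death. Its level was 19.1 CPM (17.9 to 20.4) in untreated astrocytes, 7.88 (7.12 to 8.69) in MIM-treated astrocytes and 7.15 (5.85 to 8.65) in neural stem cells. The astrocyte library was the high one, and the other two overlapped. MIM-treated cells were 2.43-fold (2.16 to 2.73) lower than untreated ones, and 0.765% against 1.99% of thinned cells had a UMI (unthinned 2.61% against 9.15%). With TMM the log2 ratio was -0.96, just inside the rule, so the call was lost there.

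Nupr1 (chr7:126623249-126630861), a small chromatin-associated protein induced by stress and a known ATF4 target, separated both astrocyte libraries from the neural stem cells more than any other of the 10. All neural stem cells together held 8 UMIs (0.545 CPM, 0.235 to 1.07), untreated astrocytes 1485 (29.4 CPM, 27.9 to 30.9) and MIM-treated astrocytes 2818 (55.4 CPM, 53.3 to 57.4). Astrocytes were 53.9-fold (27.3 to 125) and MIM-treated astrocytes 102-fold (51.5 to 236) above neural stem cells. MIM-treated cells were 1.89-fold (1.77 to 2.01) above untreated ones. The log2 ratio of 0.89 fell just short of the rule and passed it under TMM (1.13). It was 0.19 when only cells with no UMI of the dividing markers were compared, an alternative chosen after seeing the data. This filter, used for other genes too, was applied without thinning, so shallower cells pass it more easily. It kept 8247 of 14964 MIM-treated and 9398 of 9818 untreated cells, and the parts of depth and division were not tested.

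The cells that held Nupr1 were few in both astrocyte libraries. After thinning, 0.052% of neural stem cells, 1.75% of untreated and 3.79% of MIM-treated astrocytes had a UMI (unthinned 0.0875%, 5.52% and 10.4%). In untreated astrocytes a cell with any Nupr1 held 2.74 UMIs on average and up to 56, and the top 1% of cells held 63.4% of all its UMIs. In MIM-treated astrocytes these values were 1.82 UMIs, up to 62 and 32.2%. For Atf4 the same top 1% held 15.2% and 16.3%, so Nupr1 was more concentrated in single cells than Atf4. The MIM-treated level also went with depth, from 24.1 CPM (20.0 to 28.8) in the shallowest quartile of cells to 74.0 (70.4 to 77.7) in the deepest, where Atf4 was 39.6 and 40.7 CPM.

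Trib3 (chr2:152337422-152344032), a pseudokinase that damps ATF4 and CHOP, was nearly absent, with 1, 16 and 11 UMIs in the 3 libraries (0.068, 0.316 and 0.216 CPM). The MIM-treated over untreated ratio was 0.683 (0.287 to 1.57), so no difference was detectable at this depth. Chac1 (chr2:119351229-119354381), which breaks down glutathione, was also sparse, with 4, 44 and 74 UMIs (0.272, 0.870 and 1.45 CPM). Neither gene reached 5 CPM in any library. The Chac1 ratio was 1.67 (1.14 to 2.49) for MIM-treated over untreated cells, and in cells without dividing markers its log2 ratio was -0.10 in place of 0.39.

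Asns (chr6:7675169-7693254), asparagine synthetase and a standard target of ATF4, stood at 4.56 CPM (3.54 to 5.79), 14.8 (13.7 to 15.9) and 21.7 (20.4 to 23.0). The libraries were in the same order as for Atf4, with no overlap of intervals. Astrocytes were 3.24-fold (2.52 to 4.22) and MIM-treated astrocytes 4.75-fold (3.71 to 6.17) above neural stem cells, and MIM-treated cells were 1.47-fold (1.34 to 1.61) above untreated ones. Sesn2 (chr4:132492032-132510501), a leucine-binding brake on the growth kinase complex mTORC1, had another order, with 8.99 CPM (7.52 to 10.7), 2.55 (2.13 to 3.03) and 4.56 (3.99 to 5.18). It was 3.52-fold (2.74 to 4.53) lower in astrocytes than in neural stem cells, the only one of the 10 called lower there.

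Slc3a2 and Slc7a5 encode the heavy and the light chain of the LAT1 transporter of large neutral amino acids, and their levels were ordered differently across the libraries. Slc3a2 (chr19:8706882-8723369) stood at 267 CPM (262 to 271) in untreated astrocytes, 73.4 (71.0 to 75.8) in MIM-treated astrocytes and 46.6 (43.2 to 50.3) in neural stem cells. Untreated astrocytes were far above both others, by 5.72-fold (5.29 to 6.18) over neural stem cells and 3.63-fold (3.50 to 3.77) over MIM-treated cells. Thinned neural stem cells, untreated and MIM-treated astrocytes held it in 4.21%, 21.8% and 6.62% of cells (unthinned 6.81%, 61.9% and 20.6%). The MIM-treated over untreated call held under every scaling, cell filter, pseudocount and expression floor tried, with log2 ratios of -1.61 (TMM) to -2.03 (cells without dividing markers).

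Slc7a5 (chr8:121881150-121907694) went the other way, with 23.1 CPM (20.7 to 25.7), 11.2 (10.3 to 12.2) and 9.96 (9.11 to 10.9). Both astrocyte libraries were low and overlapped. MIM-treated cells were 2.32-fold (2.01 to 2.66) below neural stem cells, a call lost with TMM and with a pseudocount of 10 CPM. Untreated astrocytes lay just inside the rule at log2 -0.98. The Slc3a2 protein also pairs with other light chains, which were listed after the values were seen. Slc7a6, which exchanges cationic and neutral amino acids, stood at 7.56, 2.45 and 2.44 CPM. Slc7a11, the cystine carrier, stood at 2.79, 0.870 and 6.19 CPM and was 7.12-fold (5.18 to 9.99) higher in MIM-treated than in untreated astrocytes. Slc7a7, Slc7a8 and Slc7a10 were each at or below 1.16 CPM in every library. Of these 6 light chains only Slc7a8, at 0.711 CPM, was highest in untreated astrocytes, where Slc3a2 was highest.

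The other genes of the pathway were read from 9 lists, with the same size rule. In MIM-treated over untreated astrocytes the amino acid and one-carbon synthesis list had 4 of 11 measured genes higher and 2 lower. Over all genes 10.7% were higher and 18.6% lower in this comparison, the shares to set beside each list. Pycr1, the last step of proline synthesis, was 9.69-fold higher (7.48 to 12.7), Mthfd2 of mitochondrial folate metabolism 3.67-fold (3.20 to 4.21) and Psph, which completes serine synthesis, 2.96-fold (2.87 to 3.06). Got1 and Cth were 2.72-fold and 2.63-fold lower. Of 5 amino acid transporters 2 were higher, Slc7a11 and the glycine carrier Slc6a9 (6.33-fold, 5.24 to 7.69), and the glutamine carrier Slc38a1 was 3.16-fold lower. Of 19 cytosolic aminoacyl-tRNA synthetases 2 were higher (Nars 3.37-fold, Lars 2.11-fold) and 1 lower (Qars, 2.21-fold), neither above the share over all genes.

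Other stress targets and the ER genes came next. Among 12 other stress targets and feedback genes, 1 was higher (Eif4ebp1, which restrains cap-dependent translation, 2.66-fold) and 4 were lower. Txnip was 22.0-fold lower (16.9 to 29.3), Atf3 13.5-fold (9.82 to 19.0) and Ppp1r15a, the phosphatase subunit that ends eIF2 phosphorylation, 3.70-fold (3.33 to 4.13). Of 18 ER chaperone and unfolded protein response genes 0 were higher and 3 lower (Dnajc3 3.51-fold, Dnajb9 2.48-fold, Pdia4 2.21-fold), a share below the 18.6% over all genes. The same ER list had 10 of 18 higher and 0 lower in astrocytes over neural stem cells, against 22.6% and 25.6% of all genes. In MIM-treated astrocytes over neural stem cells it had 8 of 18 higher and 0 lower, against 11.4% and 23.8%. The eIF2 list had 1 of 14 higher (Eif2s2, 2.17-fold), mitochondrial chaperones and proteases 2 of 11 (Hspe1 2.88-fold, Hspd1 2.36-fold), and the mTORC1 sensing list 2 of 18 lower (Rragd 2.50-fold, Sesn1 2.24-fold); the eIF2 and mTORC1 shares were also below those over all genes. Medians of the log2 ratio were 0.23 for synthesis, 0.87 for transporters, 0.03 for synthetases, -0.69 for other stress targets, -0.23 for eIF2, -0.51 for ER, 0.31 for mitochondrial and -0.46 for mTORC1 sensing genes, beside -0.21 over all genes.

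Immediate early genes, listed because cell handling can raise them, also differed in this comparison, in which serum and medium changed too. They had 3 of 5 lower in MIM-treated cells (Junb 35.2-fold) and 1 higher (Btg2), against 18.6% and 10.7% of all genes. All 10 of that list summed to 296, 196 and 76.3 CPM in the 3 libraries. Atf3 and Ppp1r15a respond to such handling as well as to ATF4. The parts of handling, serum and medium in these differences were not tested and cannot be told apart.

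**Figure D2:**
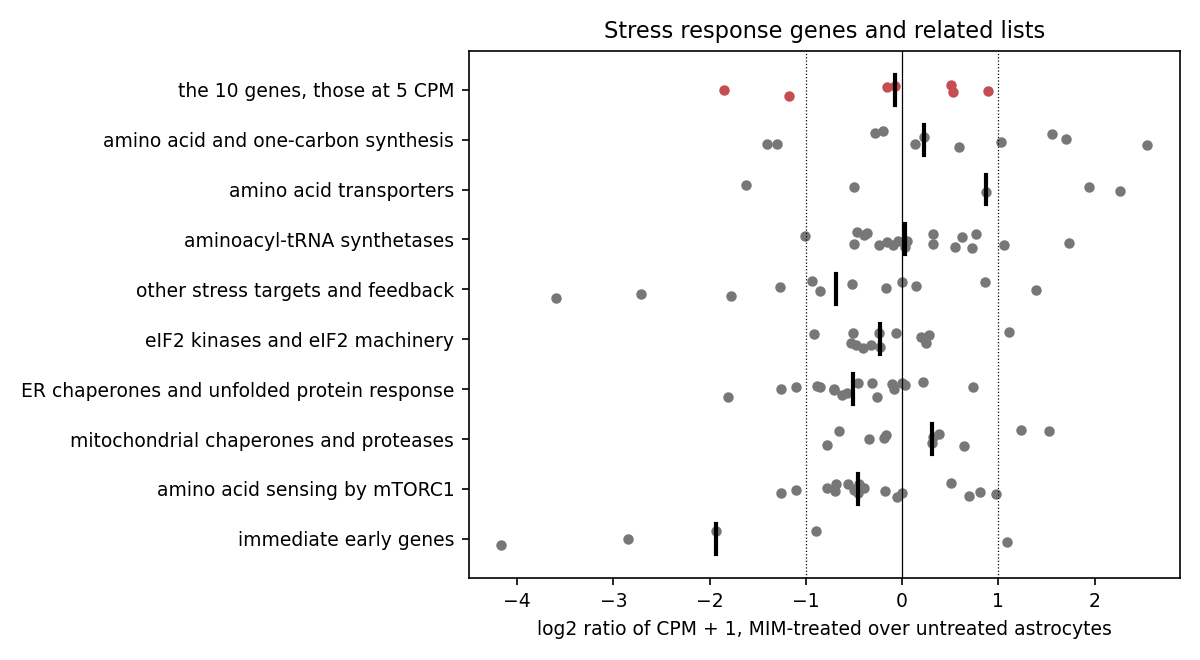
Log2 ratio of CPM + 1, MIM-treated over untreated astrocytes, for the genes of each list that reached 5 CPM in either library; each point is a gene, black bars are list medians and dotted lines mark the 2-fold rule. Of the 10 genes (red) 7 are shown, with Slc3a2 and Ddit3 left of the rule, and the ER genes have 0 points right of it.

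Cells of each library were then clustered without the 10 genes and without the listed pathway genes, giving 5 clusters in neural stem cells (NSC), 5 in astrocytes (Astro) and 7 in MIM-treated astrocytes (MIM), called by number. In untreated astrocytes the 10 genes summed highest in Astro 5 (610 CPM), 440 cells led by Cdkn1a, Phlda3, Trp53inp1 and Ccng1, which are known targets of p53. Nupr1 stood there at 123 CPM (109 to 139), against 14.6 to 31.5 in the other 4 clusters. Ddit3 stood there at 38.9 CPM (31.1 to 48.2), against 19.1 for the whole library and 15.5 to 30.7 in the other 4 clusters. Its interval overlapped that of Astro 4 (19.0 to 46.9). Atf4 at 39.9 CPM (31.9 to 49.2) and Sesn2 at 7.88 CPM (4.59 to 12.6) were also highest in Astro 5. Atf5 was highest in Astro 4, at 54.1 CPM (38.1 to 74.5). At a coarser resolution of 0.3 Astro 5 was not separate, and the highest Nupr1 level of an astrocyte cluster was then 35.7 CPM.

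Slc3a2 had another pattern in the same library. It was highest in Astro 3, at 437 CPM (423 to 451), 1541 cells led by Wisp2, Igfbp2, Tagln and Acta2, and 222 to 324 CPM in the other 4 clusters. Acta2 and Tagln are contractile genes. The lowest astrocyte cluster was thus above every neural stem cell and MIM-treated cluster, whose highest values were 96.9 and 91.7 CPM.

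In MIM-treated cells, the dividing-like cluster MIM 3 (2717 cells, 6 of 7 dividing markers among its leading genes) had the highest Nupr1 level of all 7, 106 CPM (101 to 111). Asns there was 32.1 CPM (29.2 to 35.2), Atf4 55.4 (51.6 to 59.5) and Chac1 3.14 (2.28 to 4.21). In MIM 1, the largest cluster (5911 cells, led by Aldoc, Sparcl1 and F3), Nupr1 was 33.0 CPM (30.7 to 35.5), Asns 14.5 (13.0 to 16.1) and Atf4 27.3 (25.2 to 29.5). MIM 2 (2731 cells, led by Gm813 and Lhfpl3) had Nupr1 at 8.54 CPM (6.21 to 11.5) but Atf4 at 39.8 (34.5 to 45.6). Nupr1 thus ran from 8.54 to 106 CPM over MIM 1 to MIM 4, where Ddit3 was 6.79 to 9.51 CPM. Of the 2 clusters of shallow cells (median 794 and 890 UMIs), MIM 5 had Nupr1 at 57.7 CPM (41.9 to 77.5) from 44 UMIs, and MIM 6 held at most 11 UMIs of any of the 10 genes. The smallest cluster, MIM 7 (99 cells), stood at 63.3 CPM for Atf4 (38.1 to 98.8, 19 UMIs) and 46.6 for Asns (25.5 to 78.2, 14 UMIs), both above MIM 3 with overlapping intervals. Chac1 at 9.99 CPM and Trib3 at 6.66 CPM in MIM 7 rest on 3 and 2 UMIs.

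In neural stem cells both transporter chains differed between clusters beyond counting error. Slc7a5 was 64.2 CPM (48.1 to 84.0) and Slc3a2 96.9 CPM (76.8 to 121) in NSC 5, 251 cells with a median of 2683 UMIs led by Ubb and Jund. Both were lowest in NSC 2, at 9.24 (6.50 to 12.7) and 25.5 CPM (20.8 to 30.9), 3028 cells led by Ppp1r16b, Lhfpl3, Chd3 and Helt. Asns, on 6 to 21 UMIs in each cluster, ran from 2.12 CPM (0.852 to 4.37) in NSC 3 to 15.7 (8.38 to 26.9) in NSC 5. The astrocyte-like NSC 3 (Aqp4, Slc1a2, Gja1) had Slc7a5 at 33.6 CPM (27.7 to 40.5). The chains thus kept the same order over these 3 clusters, unlike their order across libraries. Nupr1 was at 0 to 0.934 CPM in every neural stem cell cluster, the dividing-like NSC 4 included, where it had 0 UMIs.

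**Figure D3:**
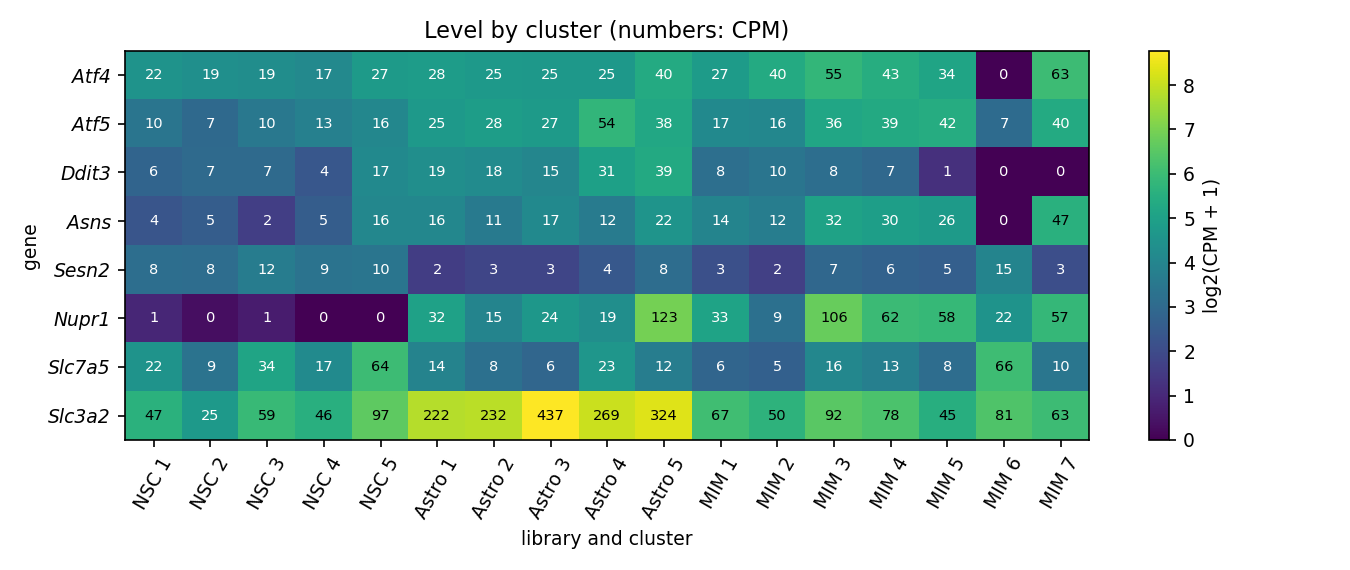
Level of 8 of the 10 genes (rows; Trib3 and Chac1 are left out as too sparse) in each cluster of each library (columns); colour is log2(CPM + 1) and the printed numbers are CPM. Slc3a2 is high in all 5 astrocyte clusters, and Nupr1 is high in Astro 5 (123 CPM) and MIM 3 (106 CPM).

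Genes most like the well-measured members across the 17 clusters, each library centred on its own mean, were looked up among 3318 genes at 50 CPM or more. For Nupr1 they were Cdkn1a (Pearson r = 0.87), Cited1 (0.85) and Hras (0.81), and for Slc3a2 they were Sfrp1 (0.88), Igfbp2 (0.84) and Sgcb (0.82). Clusters of a library share its depth and preparation, so these are descriptions.

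Whether the genes occur in the same cells was asked in cells thinned to a fixed depth, so that deep cells do not create pairs by detection alone. A level that goes with depth can still do so after thinning. In MIM-treated cells Nupr1 stood at 24.1 CPM in the shallowest and 74.0 in the deepest quartile, and Atf4 at 39.6 and 40.7. The number of cells with 2 or more of the 10 genes was set against the number that the single shares give if the genes are independent. At 1000 UMIs the ratio was 1.29 (1.14 to 1.44) in MIM-treated astrocytes, 1.09 (0.970 to 1.22) in untreated ones and 0.990 (0.693 to 1.37) in neural stem cells. At 2000 UMIs it was 1.21 (1.13 to 1.30), 0.985 (0.920 to 1.05) and 0.876 (0.610 to 1.22) in that order. Only the MIM-treated library had an interval above 1 at either depth, and 150 of its cells held 3 or more of the genes at 2000 UMIs, where independence gives 61.1; in astrocytes 82 cells did, where it gives 78.9. Doublets were kept, since no doublet caller was run; without the 8% of cells with the most UMIs the ratio at 1000 UMIs was 1.43 in MIM-treated cells and 1.01 in astrocytes.

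Single pairs were read at 2000 UMIs where independence gives at least 20 cells. In MIM-treated astrocytes 12 of 45 pairs could be read and 8 had intervals above 1. In untreated astrocytes 9 could be read and 0 did. The pairs of Nupr1 with Asns, Atf5 and Atf4 were not among those 9, since independence gives fewer than 20 untreated cells for each. Below that limit, untreated Asns with Nupr1 was found in 15 cells against 7.86 (1.91, 1.07 to 3.15). Untreated Atf5 and Atf4 with Nupr1 were at 0.798 (0.412 to 1.39) and 0.739 (0.369 to 1.32). Asns with Nupr1 was found in 85 MIM-treated cells where 36.3 are given by independence (ratio 2.34, 1.87 to 2.90). Atf5 with Nupr1 was found in 89 cells (2.00, 1.61 to 2.46) and Atf4 with Nupr1 in 102 (1.71, 1.40 to 2.08). Atf4 with Atf5 followed at 1.52 (1.17 to 1.94), and the pairs of Slc3a2 with Nupr1, Asns and Atf5 lay between 1.41 and 1.51. Nupr1 with Slc3a2 could be read in both libraries, at 1.51 (1.29 to 1.76) in treated and 1.03 (0.838 to 1.25) in untreated cells. Ddit3 with Slc3a2 was at 1.23 (0.814 to 1.77) and 0.953 (0.796 to 1.13), so neither interval lay above 1.

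Part of this went with clusters. Independence was then taken within each cluster, which separates dividing and other cells only in part. The dividing markers summed to 1242 CPM in MIM 4, between 66.6 in MIM 1 and 5753 in MIM 3. Within clusters, Asns with Nupr1 was at 1.87 (1.49 to 2.31) and Atf5 with Nupr1 at 1.62 (1.30 to 2.00). Atf4 with Nupr1 was at 1.45 (1.18 to 1.76). Atf5 with Asns was at 1.27 (0.897 to 1.74), so its interval no longer lay above 1, while Atf4 with Atf5 and the pairs of Slc3a2 with Nupr1, Asns and Atf5 lay between 1.31 and 1.37 with intervals above 1. At 1000 UMIs fewer pairs could be read: of 4 in MIM-treated cells 0 had an interval above 1, and of 6 in untreated astrocytes 1 did (Atf5 with Slc3a2, 1.32, 1.04 to 1.66), which was 0.994 (0.857 to 1.15) at 2000 UMIs. No pair could be read in neural stem cells at either depth.

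**Figure D4:**
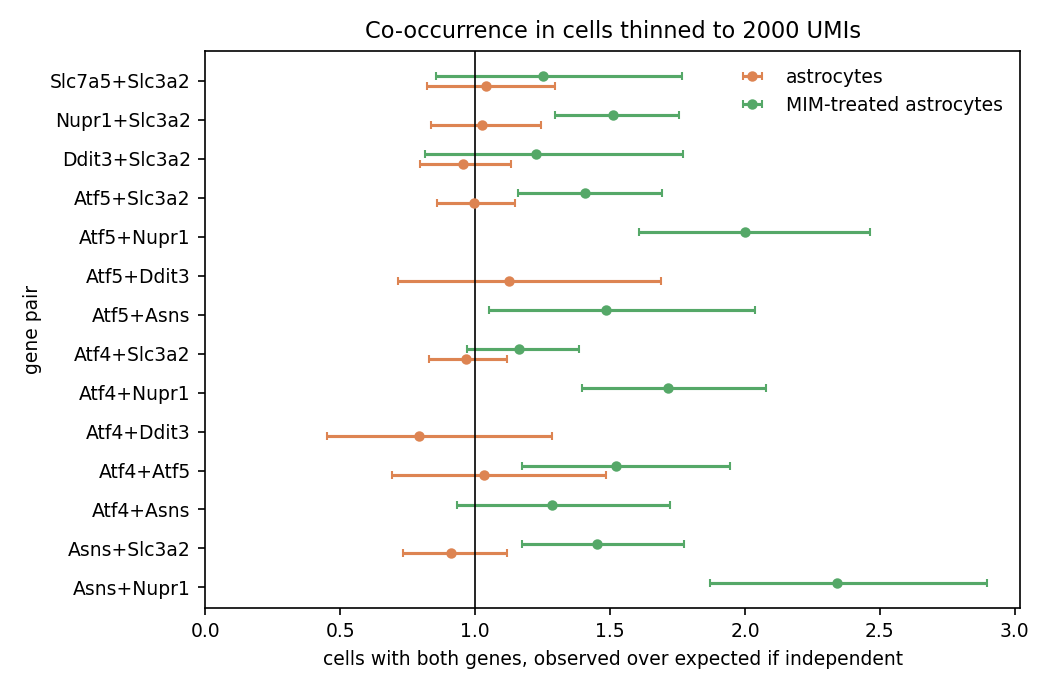
Observed cells with both genes over the number given by independence, for pairs that could be read in cells thinned to 2000 UMIs; points are 1 library each and bars are exact 95% counting intervals. All 12 points of MIM-treated astrocytes lie above 1, led by Asns with Nupr1 at 2.34, and the 9 of untreated astrocytes have intervals that include 1.

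Because Nupr1 led these pairs, cells with 2 or more Nupr1 UMIs at 2000 UMIs were compared with cells that had none, a comparison chosen after the values were seen. Since the split uses the gene with which several of the others had already co-occurred in these cells, the values of the 10 genes restate those pairs and are given as a description. In MIM-treated astrocytes there were 226 such cells (median 4582.5 UMIs) and 10508 without (median 3719). Of the 8 other genes of the 10 that reached 5 CPM, 5 were at least 2-fold higher and 0 lower, against 3.59% and 3.56% of all 8152 genes. Chac1, which reached 5 CPM only in the cells with Nupr1, was 8.64 against 1.35 CPM (6.41-fold, 2.79 to 13.1). Asns was 59.5 against 19.5 (3.05-fold, 2.32 to 3.95) and Atf5 65.3 against 23.9 (2.73-fold, 2.10 to 3.49). Atf4 was 2.24-fold (1.78 to 2.78) and Slc7a5 2.16-fold (1.32 to 3.35) higher. Slc3a2, Ddit3 and Sesn2 were 1.71-fold, 1.85-fold and 1.79-fold higher, the last with an interval that includes 1 (0.760 to 3.59). Sesn2 also reached 5 CPM only in the cells with Nupr1 (7.68 against 4.30 CPM).

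Some listed pathway genes outside the 10 were higher in the same cells and most did not pass 2-fold. The synthesis list had 3 of 13 higher and 1 lower, the synthetases 3 of 20 and 1, other stress targets 3 of 11 and 1, and the transporters 1 of 6 and 0. Over all 8152 genes the shares were 3.59% higher and 3.56% lower. The transporter was Slc7a1, which reached 5 CPM only in the cells with Nupr1 (6.72 against 1.87 CPM on 7 UMIs). These counts are descriptions too, since the floor could be reached in the cells with Nupr1 alone. Mthfd2 was 4.67-fold higher (3.68 to 5.87), Jdp2 3.19-fold (1.99 to 4.88) and Eif4ebp1 3.15-fold (2.85 to 3.48). Gdf15, a secreted stress signal, reached 5 CPM only in the cells with Nupr1, at 9.60 against 1.91 CPM on 10 UMIs. Pck2, Shmt2 and the synthetases Gars, Vars and Yars were between 2.11-fold and 2.46-fold higher. Cbs was at 0.439-fold (0.160 to 0.962), Qars at 0.353-fold with an interval that includes 1, and Vldlr had 0 UMIs in the cells with Nupr1. Ppp1r15a, Ddit4 and Sqstm1 were at 0.681-fold, 0.967-fold and 1.06-fold, each with an interval that includes 1. Of 18 ER chaperone and unfolded protein response genes 0 passed 2-fold in either direction, with a median of 1.14-fold; Hspa5, the main ER chaperone, was at 1.23-fold (1.02 to 1.45). The mTORC1 sensing list and the mitochondrial chaperone list also had 0 of 18 and 0 of 11, with medians of 0.996-fold and 1.05-fold.

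Of the 226 cells, 123 lay in the dividing-like MIM 3, 52 in MIM 1 and 46 in MIM 4. Within MIM 3 alone Asns was 2.56-fold (1.82 to 3.51), Chac1 5.45-fold (2.28 to 11.7), Atf5 1.95-fold (1.37 to 2.71) and Atf4 1.77-fold (1.33 to 2.33) higher in cells with Nupr1. Within MIM 1, where the dividing markers summed to 66.6 CPM against 5753 in MIM 3, Atf5 was 4.16-fold (2.35 to 6.85), Asns 2.77-fold (1.25 to 5.33) and Slc3a2 2.05-fold (1.40 to 2.91) higher, while Atf4, with 9 UMIs in those cells, was at 1.43-fold (0.650 to 2.73). Within MIM 4 Atf4 was 2.28-fold (1.26 to 3.83) and Atf5 2.00-fold (1.02 to 3.56) higher. Asns was there at 1.65-fold (0.654 to 3.48) and Slc3a2 at 1.36-fold (0.770 to 2.23), both with intervals that include 1. In the cells with Nupr1, Chac1 had 9 UMIs in MIM 3 and 0 UMIs in MIM 1 and MIM 4.

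In untreated astrocytes 76 cells had 2 or more Nupr1 UMIs (median 5668.5 UMIs) and 8871 had none (median 5217). Ddit3 was 2.20-fold (1.30 to 3.50) and Asns 2.04-fold (1.08 to 3.51) higher, which is 2 of 6 genes higher and 0 lower, against 7.89% and 6.89% of all 8844 genes. Atf4 was at 1.11-fold (0.589 to 1.90) and Slc3a2 at 0.909-fold (0.743 to 1.10). Mthfd2 had 0 UMIs in those cells, where its interval reaches 1.58-fold. Of 6 immediate early genes 2 were higher and 0 lower in this split, with a median of 1.62-fold. Junb was 2.99-fold higher (2.16 to 4.03). Zfp36 was at 2.85-fold (0.580 to 8.54) on 3 UMIs and reached 5 CPM only in the cells with Nupr1. Fos, Jun, Ier2 and Btg2 had intervals that include 1. Ppp1r15a was at 1.82-fold (1.17 to 2.70). The part of handling genes in the result was not tested. Neural stem cells had 0 cells of this kind among 1615 deep enough, which allows a share of up to 0.186% (3 cells). The difference between the libraries in these ratios was not tested.

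**Figure D5:**
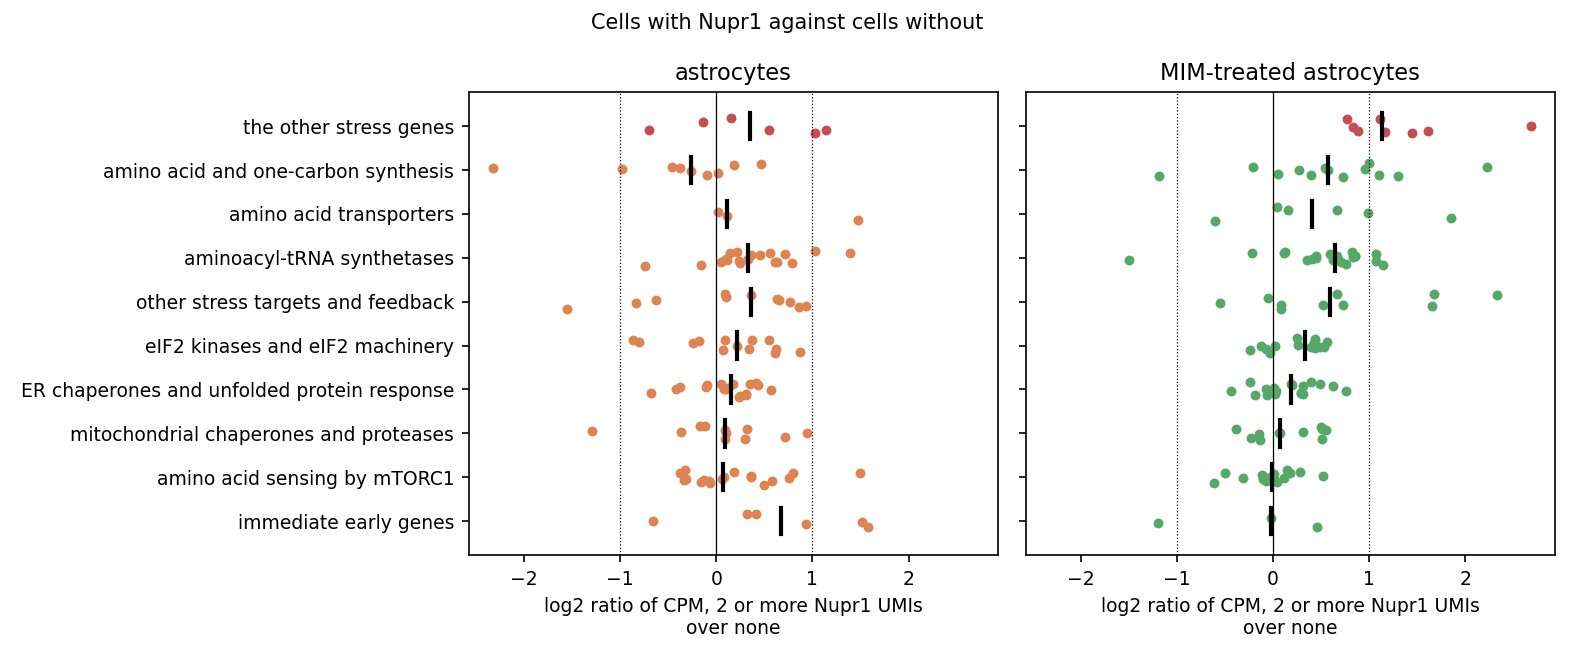
Log2 ratio of CPM in cells with 2 or more Nupr1 UMIs over cells with none, for genes of each list that reached 5 CPM on either side, in untreated (left) and MIM-treated (right) astrocytes; each point is a gene, black bars are list medians and dotted lines mark 2-fold. In MIM-treated cells 5 of the 8 other stress genes (red) lie right of 2-fold and 0 of 18 ER genes do; genes with 0 UMIs on either side are not drawn.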

How the data were processed

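UMI counts per gene and cell were deposited by the authors as 10x matrices; per the labels' protocols they were made with Cell Ranger 3.0.2 and the mm10 reference, and the submitters' processing notes also name Seurat 3.1.1 without a role. Cells with at least 200 genes and at most 20% mitochondrial UMIs were kept. Every level, ratio and share was computed here from these counts. The 10 genes and all lists were chosen with earlier results of these data known. Named were all 10 genes, the 3 called genes per list with the largest ratio, and further listed genes picked after their values were seen. Cells were thinned without replacement to 1000 or 2000 UMIs (seed 1). Clusters used 2000 variable genes, 30 principal components, 15 neighbours and Leiden resolution 0.5, each library alone; they are rebuilt here, not the authors'. With 1 library per group no test was run; the comparison code was tested on simulated data. UMIs per library set the precision (14689259 to 50906724). Coordinates are GENCODE vM21 (GRCm38), matched by gene ID for 10 of 10; promoters are RefSeq's (GRCm38.p6), with Slc7a5 not in that table. Sums and intervals used Python 3.11.15 with scipy 1.17.1 and numpy 2.4.6, clusters scikit-learn 1.9.0 and igraph 0.11.9, and TMM factors edgeR 4.0.16 in R 4.3.3.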

Additional observations from a re-analysis of the deposited data

How the results depend on the processing

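Counts of the 10 genes called are given as higher and lower. MIM-treated over untreated astrocytes (0 and 2) became 1 and 1 with TMM, and 0 and 1 with a pseudocount of 10 CPM or a floor of 50 CPM. Astrocytes over neural stem cells (5 and 1) became 5 and 2 (Slc7a5 added) with totals without mitochondrial and ribosomal protein genes, with totals without Malat1 and with at least 500 genes and at most 10% mitochondrial UMIs; 2 and 0 with the pseudocount of 10; and 1 and 0 with the floor of 50. MIM-treated astrocytes over neural stem cells (3 and 1) became 5 and 0 with TMM (Atf4 and Slc3a2 added, Slc7a5 lost) and 3 and 2 without Malat1 (Sesn2 added). They became 2 and 0 with the pseudocount of 10 (Atf5 and Slc7a5 lost) and 1 and 0 with the floor of 50. In cells without dividing markers, chosen after seeing the data, they were 2 and 2 (Atf5 lost, Sesn2 added). The floor left 2, 1 and 2 of the genes to call. Over all genes, MIM-treated over neural stem cells gave 21.6% higher and 13.2% lower with TMM and 6.53% and 35.0% without Malat1, and astrocytes over neural stem cells 18.1% and 31.7% without Malat1. With the pseudocount of 10, shares over all genes fell too, to 6.07% higher and 8.35% lower for MIM-treated over untreated astrocytes. They were 13.7% and 12.04% for astrocytes over neural stem cells and 6.31% and 7.53% for MIM-treated astrocytes over neural stem cells. With the floor of 50 they were 14.7% and 17.5%, 31.2% and 22.9%, and 20.3% and 16.2% in that order of comparisons. No called log2 ratio changed sign under these alternatives. Near 0, Slc7a5 in MIM-treated over untreated cells moved from -0.16 to 0.06 with TMM, and Ddit3 in MIM-treated over neural stem cells from 0.12 to -0.15 without Malat1. The causes were not tested. No paired analysis was possible because each group is 1 library. Depth limits Trib3 and Chac1 throughout, and pairs of genes in neural stem cells.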

Other observations

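In each astrocyte library Nupr1 was highest in the cluster where Cdkn1a, the p53-induced inhibitor of the cell cycle, was highest, so 10 known p53 targets were read, a list chosen after the values were seen. In Astro 5 Cdkn1a stood at 330 CPM, Phlda3 at 315, Ccng1 at 229 and Trp53inp1 at 102 CPM, and these genes led the cluster. In the dividing-like MIM 3 Cdkn1a stood at 200.2 CPM and Phlda3 at 111 CPM, but Mdm2, the p53 feedback gene, at 15.03 CPM, where Astro 5 had 67.2. Zmat3 was 12.7 and 19.9 CPM in MIM 3 and Astro 5. Ccng1 stood at 99.5 CPM in MIM 3, against 36.3 to 88.9 in MIM 1, MIM 2 and MIM 4. Bax stood at 939 CPM there, against 475 to 830. Gtse1, Zmat3 and Eda2r were also higher in MIM 3 than in those clusters, and Mdm2, Trp53inp1 and Sesn1 were not. Across whole libraries Cdkn1a stood at 90.0 CPM in MIM-treated astrocytes, 49.8 in untreated ones and 20.4 in neural stem cells, while Mdm2 stood at 13.2, 17.8 and 21.0 CPM, the reverse order. Ccng1 (72.1, 53.2 and 27.8 CPM), Phlda3 (59.9, 47.9 and 24.4) and Bax (673, 356 and 348) had the order of Cdkn1a. The Bax intervals of untreated astrocytes and neural stem cells overlapped. Zmat3 had the order of Mdm2, and Trp53inp1, Gtse1, Sesn1 and Eda2r had other orders.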
